A study of Drosophila sechellia x Drosophila simulans with 8 samples.

Results

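Allele-specific expression in the fat body of female hybrids of Drosophila sechellia and Drosophila simulans was examined gene by gene. The members are the genes with 20 or more allele-specific reads in each of the 2 female fat body libraries, on all chromosomes. They number 2690 of the 14176 genes in the tables (19.0%), with 2198 on the autosomes, 478 on the X and 14 on unplaced scaffolds. A symbol other than a GD number was given for 107 of them, against 427 in the whole table, and the files give a chromosome for each gene but no coordinates. The 471 genes whose lower library held 15 to 19 reads had median log2 ratios of 0.45 and 0.50 in replicates 1 and 2, and the 332 members whose lower library held 20 to 24 reads had 0.47 and 0.57.

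All flies of the study were F1 hybrids of the 2 species, so females carried a chromosome set of each. Fat body and oenocytes were dissected separately from the dorsal abdomen of females and males aged 10 days, kept in 12 h of light and 12 h of dark, with dissections spread evenly over 24 h. The 4 groups had 2 libraries each, numbered as replicates 1 and 2. The labels leave unstated the direction of the cross, the number of flies in a library and whether the replicates came from separate crosses. The p-values therefore measure the spread between these libraries, which the main fit estimated over all 4 groups together.

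The fat body is the insect counterpart of liver and adipose tissue. It stores fat and glycogen, makes yolk protein in females, detoxifies, and carries the humoral immune response through the Toll and Imd pathways. In an F1 hybrid both alleles of a gene sit in the same nuclei and meet the same regulatory proteins, so unequal RNA from them is the classical readout of differences linked to the gene itself. D. sechellia is known as a specialist on the toxic fruit of Morinda citrifolia, while D. simulans is a generalist.

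The tables name a reference and an alternative allele. The reference was read as D. simulans and the alternative as D. sechellia, because the alternative-to-reference ratio of a gene followed the ratio of its D. sechellia to its D. simulans transcript copy in the deposited kallisto tables. Across 941 genes Pearson's r was 0.676 in replicate 1 and 0.675 in replicate 2, and Spearman's rho was 0.690 and 0.721 (genes are not independent replicates). Ratios are given on the scale of the deposited values, log2((alternative + 5)/(reference + 5)), or as the percentage of alternative reads.

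Replicate 1 held 2888527 reads in genes and replicate 2 held 3731066, of which 830407 (28.7%) and 1088932 (29.2%) were specific for an allele. Across the 8 libraries the allele-specific reads ranged from 563434 to 1155753. The members held 95.6% and 95.3% of the allele-specific reads of the 2 female fat body libraries, with a median of 62 and 78 reads per member, and 831 members had 100 or more reads in each library. Of 24 fat body markers 3 were found, with Lsp1gamma at 0, and they summed to 88267 and 87132 TPM (length-scaled transcript abundance) in female fat body, nearly all of it from the yolk protein gene Yp2. The same sum was 36351 and 37413 TPM in female oenocytes and 54.7 and 84.7 TPM in male fat body. The 4 oenocyte markers found summed to 9350 and 8876 TPM in female fat body against 11153 and 10524 TPM in female oenocytes. Desat1 carried this sum, and it was higher in fat body (9292 and 8822 TPM) than in oenocytes (6648 and 6242 TPM). DesatF had 30.4 and 25.7 TPM in fat body against 2725 and 2544 in oenocytes, Desat2 had 22.9 and 23.9 against 1776 and 1732, and Cyp4g15 had 4.17 and 4.53 against 4.60 and 5.47. The 4 muscle markers found summed to 30.5 and 35.6 TPM, the 4 ovary markers to 0.05 and 0 TPM with 3 of them at 0, the 3 trachea and epidermis markers to 3.15 and 3.32 TPM, and none of 12 hemocyte markers was found. In bulk tissue, fewer cells of a type and less RNA per cell cannot be told apart, and the part of oenocyte RNA in the allelic values was not tested.

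The D. sechellia allele gave more reads than the D. simulans allele at most members. The median log2 ratio was 0.559 in replicate 1 and 0.585 in replicate 2 (0.572 ± 0.018, SD, n = 2). On this scale that corresponds to 59.6% and 60.0% alternative reads. The middle 50% of members lay between 0.07 and 1.08 in replicate 1 and between 0.07 and 1.13 in replicate 2. The ratio was above 0 at 2071 members (77.0%) in replicate 1 and at 2075 (77.1%) in replicate 2, and in both libraries at 1864, against 376 below 0 in both. Equal reads is therefore not the middle of the distribution, and each gene was also set against its own library's median. Relative to that median 189 members were more than 2-fold higher in both libraries and 133 more than 2-fold lower. The edgeR test against the median used medians with a pseudocount of 0.5, which were 0.665 in replicate 1 and 0.674 in replicate 2.

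**Figure D1:**
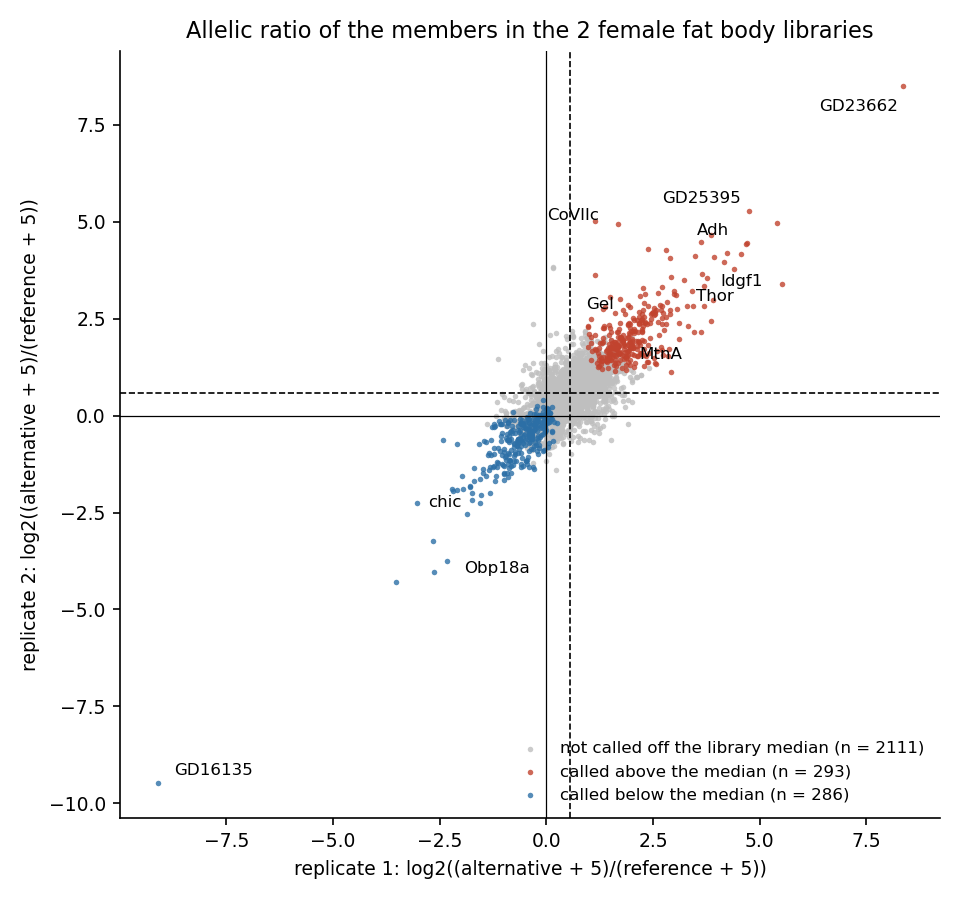
Each point is a gene with 20 or more allele-specific reads in both female fat body libraries (n = 2690), with its log2 ratio of alternative to reference reads in replicate 1 (x axis) and in replicate 2 (y axis). Solid lines mark equal reads and dashed lines the library medians on the deposited scale (0.559 and 0.585). Red points were called above the median (293) and blue points below it (286). The calls used medians with a pseudocount of 0.5 (0.665 in replicate 1 and 0.674 in replicate 2), which are not drawn. Most points lie along the diagonal on the positive side.

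The ratio of a gene was similar in the 2 libraries. Across members the log2 ratios of replicates 1 and 2 correlated at r = 0.807 and rho = 0.739 (across genes, which share the library and its depth), and the median absolute difference was 0.325. Fisher's exact test on the reads of the 2 libraries, which compares these libraries only, found 62 members (2.30%) with unequal shares at an adjusted p under 0.05, 24 higher in replicate 1 and 38 higher in replicate 2. The 6 with a symbol were Yp2, Gel, Tl, Obp99a, Obp99c and CoVIIc, and they are described with their separate values.

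Against equal reads, edgeR's quasi-likelihood test called 974 of 2690 members (36.2%) at a Benjamini-Hochberg adjusted p under 0.05. Of these, 886 (32.9%) leaned to the alternative allele and 88 (3.27%) to the reference. Against the library median, 579 members (21.5%) were called, 293 above (10.9%) and 286 below (10.6%). Both tests called 381 members, with the same direction in each. The 593 members called only against equal reads all leaned to the alternative allele, and the 198 called only against the median all lay below it. Without replicate 1 the counts were 380 and 197, and without replicate 2 they were 334 and 164, with the lone fat body library assumed to vary like the other groups. In both libraries 43 members had over 90% alternative reads and 5 had under 10%, and every one of these was called against equal reads.

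Genes with more reads were mostly called more often, though against equal reads the share was highest (59.7%) at 300 to under 1000 reads. Among the 1263 members whose lower library held 20 to under 50 reads, 23.6% were called against equal reads and 10.1% against the median. Among the 82 with 1000 or more reads in each library the shares were 52.4% and 57.3%. The median log2 ratios of the lowest and the highest class were 0.544 ± 0.012 and 0.455 ± 0.014 (SD, n = 2).

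At the upper end were genes with almost no reference reads. GD23662 (2L) had 1623 alternative and 0 reference reads in replicate 1 and 1820 and 0 in replicate 2. A count of 0 among 3443 reads over both libraries allows a reference share of up to 0.0871% (3 reads, counting error only), so the alternative allele was at least 1148-fold higher in the allele counts. The bound does not hold for the species copies of kallisto, where the log2 ratio of GD23662 against equal reads was 7.01. The reference allele of the gene was read in the other groups, since female oenocytes had 93.9% of 328 reads and 96.5% of 172 reads from the alternative allele. GD25395 (2R) had 130 alternative reads of 130 and 226 of 227. At the other end, GD16135 (X) had 4 alternative reads of 4959 in replicate 1 and 5 of 7115 in replicate 2, or 0.0755% ± 0.007 (SD, n = 2). Males, which carry a single X, had 0.131% alternative reads over 7658 reads of this gene. With kallisto the log2 ratio of GD16135 against equal reads was -6.89 instead of -10.35. GD22377 (2L), the next lowest by the naming rule, had 19.0% of 105 reads and 14.2% of 781 reads. Each of these 4 genes was called in both tests, with edgeR adjusted p of 0.000218 or lower.

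Among members with a symbol, 16 were called above the library median and 16 below it. Adh (2L), the alcohol dehydrogenase with which flies metabolise dietary ethanol, had 96.5% alternative reads of 2156 in replicate 1 and 95.7% of 3916 in replicate 2. The 2 libraries lay close together and both were far above the library medians. Its log2 ratio was 4.63 ± 0.318 (SE) against equal reads and 3.96 ± 0.286 against the median (edgeR adjusted p 2.57e-07 and 3.34e-07). With the species copies of kallisto these values were 2.49 and 1.38, and both calls held. The alternative share of Adh averaged 97.0% in the female oenocyte libraries and 97.7% in the male fat body libraries. Adhr, the overlapping gene of the same locus, was listed with nearly the same counts (2157 and 3918 allele-specific reads) although its TPM were 122 and 209 and those of Adh were 6548 and 6378, so its own allelic ratio is uncertain.

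Thor (2L), the translational repressor 4E-BP of the insulin and TOR pathway, had 90.8% alternative reads of 849 and 92.1% of 1335, with a log2 ratio of 2.76 ± 0.272 (SE) against the median (edgeR adjusted p 5.43e-06). Both libraries were on the same side by a similar margin, and conflicting reads, which carry both alleles in 1 read, were 0.585% and 0.299%. Idgf1 (2L), an imaginal disc growth factor of the chitinase-like family, had 95.1% of 225 and 93.2% of 400. Conflicting reads were 22.7% and 22.8% at Idgf1, where the median of all members was 8.45% and 8.33%. Hmgs (2R), the synthase that makes hydroxymethylglutaryl-CoA for the mevalonate pathway, had 91.2% of 68 and 88.5% of 78. Est-6 (3L), a carboxylesterase known also from male seminal fluid, had 89.8% of 128 and 88.7% of 150. The centred log2 ratio was 3.31 for Idgf1, 2.45 for Hmgs and 2.37 for Est-6, and edgeR's adjusted p was 8.89e-06, 0.00073 and 0.000166.

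The other 4 genes at this end had under 50 allele-specific reads in their lower library. CAH1 (2L), a carbonic anhydrase, had 35 alternative reads of 35 and 48 of 49, with a centred log2 ratio of 5.46 that was 2.22 with kallisto. Desat2 (3R), a fatty acid desaturase of hydrocarbon synthesis, had 20 of 20 and 47 of 52. Its centred log2 ratio was 3.07 (edgeR adjusted p 0.00864) and 7.20 without replicate 2, and the call was lost with DESeq2 (adjusted p 0.12). cact (2L), the inhibitor that holds Toll-pathway transcription factors in the cytoplasm, had 92.7% of 41 and 88.1% of 84, and its call against the median was lost without either replicate (edgeR adjusted p 0.0616 without replicate 1 and 0.0531 without replicate 2). CoVIIc (2R), a subunit of cytochrome c oxidase, had 84.4% of 32 and 98.4% of 307, shares that differed between the libraries (Fisher's exact test, adjusted p 0.0436). Without replicate 2 its centred log2 ratio was 1.75 instead of 4.04 (edgeR adjusted p 0.463), and with DESeq2 the call was lost as well (adjusted p 0.141).

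The other 6 symbols called above the median were Cdc37, Tep4, Sod, Gel, MtnA and h. Gel (3R), the actin-severing protein gelsolin, had 79.1% of 8997 and 83.5% of 3466, MtnA (3R), a metal-binding metallothionein, had 78.8% of 2615 and 80.1% of 4750, and h (3L), the repressor Hairy, had 80.1% of 181 and 74.7% of 237. The 2 libraries of Gel differed in share (Fisher's exact test, adjusted p 1.61e-06), yet both were above the median, at a centred log2 ratio of 1.46 ± 0.182 (SE; edgeR adjusted p 4.98e-05).

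Below the median, only 3 symbols also had more reference than alternative reads beyond the replicate spread, Obp18a, chic and kappaB-Ras. Obp18a (X), an odorant-binding protein, had 2 alternative reads of 32 and 0 of 62, and males had 2.29% at this X-linked gene. Its centred log2 ratio was -5.94, and -9.17 without replicate 1, where the remaining library had no alternative read. chic (2L), the actin-binding protein profilin, had 18.7% of 75 and 18.5% of 81, with no conflicting read in either library and a log2 ratio against equal reads of -2.12 ± 0.373 (SE; edgeR adjusted p 0.000689). The mean share of chic was 12.5% both in oenocytes of females and in fat body of males. kappaB-Ras (2R), a small GTPase-like partner of IkappaB proteins, had 34.4% of 189 and 39.1% of 340. Its call against equal reads was lost without replicate 1 (-0.64, edgeR adjusted p 0.349) and without replicate 2 (-0.93, edgeR adjusted p 0.195).

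The remaining symbols below the median were closer to equal reads, which itself lies below the library median. Hsp83 (3L), the Hsp90 chaperone, had 41.3% of 298 and 39.2% of 416, with a log2 ratio of -0.57 against equal reads (edgeR adjusted p 0.0514) and -1.24 ± 0.203 (SE) against the median (edgeR adjusted p 0.000526). The latter was -0.74 when centred within classes of conflicting reads and -0.79 among genes with at most 5% of them, and the call held. ATPsyn-beta (chromosome 4), the catalytic subunit of ATP synthase, had 43.6% of 225 and 34.9% of 278. cbt (2L), the transcription factor Cabut, had 43.7% of 158 and 40.4% of 188, and Mct1 (X), a monocarboxylate transporter, had 43.4% of 83 and 38.8% of 116. Trx-2 (2L), a thioredoxin, had 26.3% of 57 and 46.3% of 214. The 2 libraries of Trx-2 stood farther apart than those of the others. Calls against the median were lost without replicate 1 for Trx-2 (-0.89, edgeR adjusted p 0.233), without replicate 2 for ATPsyn-beta (-1.04, edgeR adjusted p 0.142), and without either for cbt (edgeR adjusted p 0.118 and 0.225) and Mct1 (0.161 and 0.341). ATPsyn-beta also lost its call when each chromosome was centred on its own median (-0.57, edgeR adjusted p 0.135), as did Mct1 (-1.02, edgeR adjusted p 0.0506). Centred within classes of conflicting reads, Trx-2 lost its call (-0.84, edgeR adjusted p 0.102) and ATPsyn-beta kept it at -0.81. Among genes with at most 5% conflicting reads, Trx-2 (-0.86, edgeR adjusted p 0.0795) and cbt (-0.68, edgeR adjusted p 0.0952) lost theirs and ATPsyn-beta kept it at -0.85. Without replicate 2 the value of Trx-2 was -2.14 instead of -1.33.

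**Figure D2:**
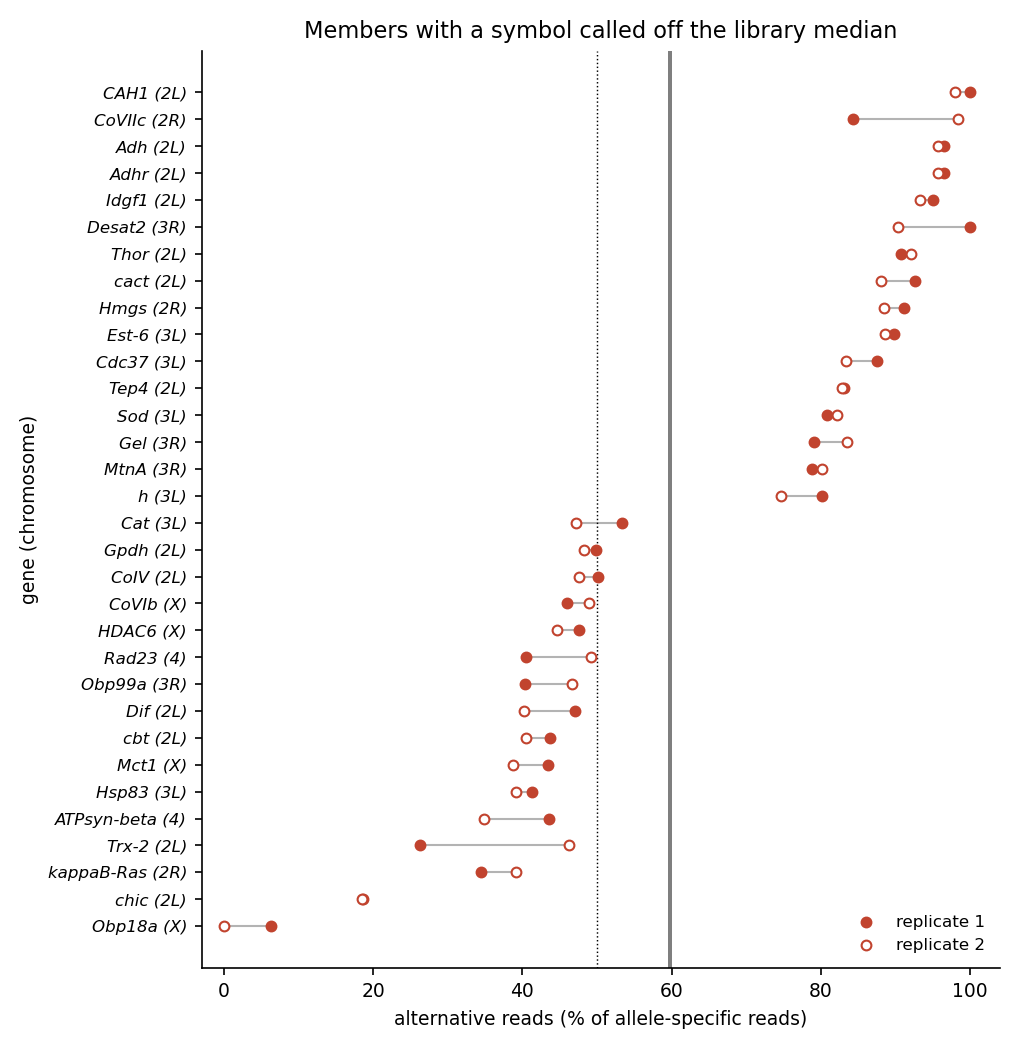
The 32 members with a symbol that were called above or below the library median, ordered by the fitted ratio, with the percentage of alternative reads in replicate 1 (filled) and replicate 2 (open) on the x axis. The dotted line marks equal reads and the solid band the library medians of the deposited scale as percentages (59.6% and 60.0%). The calls used medians with a pseudocount of 0.5, at log2 ratios of 0.665 in replicate 1 and 0.674 in replicate 2. These medians lie above the band. From CAH1 down to h both libraries lie above 70%, while most genes below the median lie between 35% and 50%.

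Of 38 names found from the immune list, 12 were members. Against equal reads 7 of 12 were called, all to the alternative allele, beside 32.9% of all members. Against the median 3 were above (Thor, cact and Tep4) and 1 below (Dif), beside 10.9% and 10.6% of all members. The median log2 ratio of the 12 was 1.10 against equal reads and 0.43 against the median, where all 2690 members had 0.69 and 0.02. Tep4 (2L), a thioester-containing protein of the complement-like family, had 83.1% of 838 and 82.8% of 1148 and a centred log2 ratio of 1.61 ± 0.21 (SE; edgeR adjusted p 7.44e-05). Tep2 (2L), of the same family, had 67.2% of 403 and 64.0% of 553. It was called against equal reads only, a call lost without either replicate (edgeR adjusted p 0.16 and 0.0917).

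Values varied among members of the Toll pathway. Tl (3R), the receptor Toll, had 56.3% of 190 and 74.2% of 959, shares that differed between libraries (Fisher's exact test, adjusted p 0.00016). It was called against equal reads, with a log2 ratio that was 1.53 without replicate 1 and 0.37 without replicate 2, where the call was lost (edgeR adjusted p 0.695). cact, the pathway's inhibitor, stood at 90.4% ± 3.24 (SD, n = 2). Dif (2L), the NF-kappaB factor that cact holds back, had 47.1% of 136 and 40.3% of 221, and its call below the median was lost without either replicate (edgeR adjusted p 0.131 and 0.404). nec (2R), a serpin upstream of Toll, had 60.7% of 384 and 52.9% of 533 and was called in neither test. Rel (3R), the NF-kappaB factor of the Imd pathway, had 66.0% of 150 and 73.1% of 193, and was called against equal reads only, a call lost without either replicate (edgeR adjusted p 0.0697 and 0.253).

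Of 12 names found from the list of alcohol, sugar and central carbon metabolism, 8 were members. Against equal reads 6 were called, all to the alternative allele, beside 32.9% of all members, and Adh and Adhr among the 6 carry nearly the same reads. Against the median 2 were above, this same pair, and 1 below, Gpdh (10.9% and 10.6% of all members). The median log2 ratio of the 8 was 0.87 against equal reads and 0.20 against the median. Gpdh (2L), the glycerol-3-phosphate dehydrogenase that links sugar to fat synthesis, had 49.9% of 1189 and 48.3% of 1732, equal reads within error (-0.05 ± 0.193, SE). Its call below the median (-0.72 ± 0.195) was lost without replicate 1 (edgeR adjusted p 0.165) and without replicate 2 (0.269). It was also lost when centred within classes of conflicting reads (-0.47, edgeR adjusted p 0.116) and among genes with at most 5% of them (-0.27, edgeR adjusted p 0.376). Zw (X) and Pgd (X), the dehydrogenases of the pentose phosphate pathway, had 62.3% ± 0.811 and 60.3% ± 3.97 (SD, n = 2), and Tpi (3R), triose phosphate isomerase, had 66.8% ± 0.431. These 3 were called against equal reads and not against the median, and each call was lost without either replicate (edgeR adjusted p from 0.133 to 0.423). Men (3R), the NADPH-producing malic enzyme, had 53.9% ± 0.0777 (SD, n = 2) and was called in neither test.

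Antioxidant enzymes of the detoxification list lay on opposite sides of the median. Sod (3L), which removes superoxide, had 80.9% of 246 and 82.2% of 303, and Cat (3L), the catalase that removes hydrogen peroxide, had 53.3% of 212 and 47.2% of 305. Their centred log2 ratios were 1.47 ± 0.377 and -0.66 ± 0.184 (SE; edgeR adjusted p 0.0114 and 0.0178). Both calls were lost without either replicate (edgeR adjusted p 0.0693 and 0.119 for Sod, 0.0735 and 0.425 for Cat), and with the species copies of kallisto Sod was below the median (-0.71) and at 0.40 instead of 2.14 against equal reads. Of the 5 members of this list, 2 were called to the alternative allele against equal reads, Est-6 and Sod, beside 32.9% of all members.

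Yp2 (X), the yolk protein that held 8.79% and 4.50% of all allele-specific reads, was near the middle of the distribution. It had 52.9% of 72965 reads in replicate 1 and 58.8% of 48952 in replicate 2. The libraries differed by more than counting error (Fisher's exact test, adjusted p 7.58e-90), and at this depth the difference between libraries, not the read number, sets the error (55.8% ± 4.19, SD, n = 2). Yp2 was called neither against equal reads (0.34 ± 0.152, SE; edgeR adjusted p 0.0948) nor against the median (-0.33 ± 0.136; edgeR adjusted p 0.0989). Male libraries had 31.5% alternative reads at Yp2, a share that rests on far fewer reads. Its level was 54.6 to 84.7 TPM in male libraries, against 88267 and 87132 TPM in female fat body.

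Of the fatty acid list 3 names were found and 2 were members. Desat1 (3R), the desaturase that makes monounsaturated fatty acids and hydrocarbon precursors, had 66.8% of 8823 and 66.5% of 12883. The libraries lay within 1 percentage point of each other. It was called against equal reads (0.999 ± 0.182, SE; edgeR adjusted p 0.000874) and not against the median (0.33 ± 0.162; edgeR adjusted p 0.168), and its mean share was 60.7% in oenocytes of females and 65.4% in fat body of males. Desat2, described with the highest symbols, was called in both tests by edgeR.

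Of 44 odorant-binding and chemosensory genes found, 3 were members, and 2 of them (Obp18a and Obp99a) were called below the median, beside 10.6% of all members. The Obp99a call was lost in 4 alternatives, given with its sex difference. Obp99c (3R) had 62.5% of 613 and 53.4% of 1087 and was called in neither test. Of the remaining lists, the ribosomal protein gene sta (X) had 71.7% of 1168 and 67.7% of 2108 and was called against equal reads. Ratios of X-linked members in females moved with the alternative share in males, described below. Acp54A1 (2R), of the accessory gland list, had 64.3% of 378 and 62.7% of 499 and was called against equal reads, a call lost without either replicate (edgeR adjusted p 0.236 and 0.193) and at 1.37 instead of 0.80 with kallisto. Sxl (X), the switch gene of sex determination, had 64.2% of 67 and 70.4% of 71 and was called in neither test. No clock or hybrid incompatibility gene was a member, and no odorant or taste receptor was found in the table.

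Chromosomes differed in their share of alternative reads. Over the autosomal members it was 62.7% ± 0.246 (SD, n = 2). The arms 2L and 2R had 65.0% ± 0.0877 and 63.8% ± 0.0809, and 3L and 3R had 61.6% ± 1.37 and 61.9% ± 0.214. Chromosome 4 stood apart at 42.2% ± 0.0752, with a median log2 ratio of -0.058 ± 0.016, and 7 of its 24 members were called below the median and 0 above, beside 10.6% and 10.9% of all members. By edgeR against equal reads, 2 of the 24 were called, 1 in each direction. The chromosome 4 share was also under 50% in the other groups, at 46.3% ± 2.10 in oenocytes of females and 45.5% ± 3.76 in fat body of males.

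The X had 55.4% ± 2.03 (53.9% in replicate 1 and 56.8% in replicate 2). Its median log2 ratio was 0.426 ± 0.018, against 0.619 ± 0.029 on the autosomes. The share sums reads, so it leans on Yp2, GD16970 and GD28649. In replicates 1 and 2, GD16970 held 9.17% and 10.97% of all allele-specific reads, and GD28649 held 6.54% and 7.47%. GD16970 had 48.6% alternative reads in replicate 1 and 56.9% in replicate 2, and GD28649 had 58.8% and 58.1%. Of its 478 members 31 were called above the library median and 65 below, beside 10.9% and 10.6% of all members. Males carry a single X, with 1 allele of each gene. Most X-linked reads in males were of the reference allele, and the male X is taken here to be that of D. simulans. Alternative reads of X-linked genes in males are on that reading called background, and where these reads came from was not tested. Over the X-linked members males had 23.5% ± 1.86 alternative reads in fat body and 17.6% ± 0.231 in oenocytes. Over all male libraries GD16970 had 324 reads, GD28649 had 254 and Yp2 had 130. The summed shares of the sexes therefore weigh different X-linked genes. This background varied by gene, with a median of 19.3% and the middle 50% between 8.36% and 32.1% over the 474 members with 20 or more male reads.

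**Figure D3:**
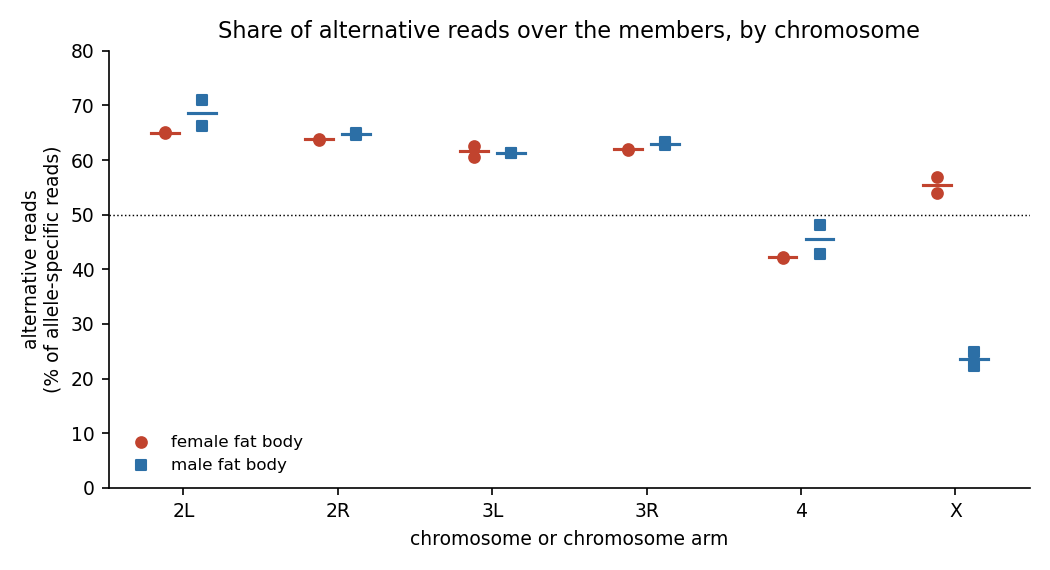
Alternative reads as a percentage of allele-specific reads over the members of each chromosome or arm, one point per library, with a bar at the mean of 2 libraries for female fat body (circles) and male fat body (squares). The autosomal arms lie above 60% in both sexes and chromosome 4 lies under 50%. The X is at 55.4% in females and 23.5% in males, the latter called background in the text. These summed shares weigh different X-linked genes in the sexes.

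The ratio in females moved with this background. The 79 X-linked members with under 5% alternative reads in males had a median log2 ratio of -0.245 ± 0.004 (SD, n = 2) in female fat body. Those at 5 to 10%, 10 to 20% and 20 to 50% had 0.025 ± 0.185, 0.260 ± 0.047 and 0.673 ± 0.007, and the 37 at 50% or more in males had 1.55 ± 0.049. Of the 31 X-linked members called above the median, 30 were measured in males, with a median male share of 51.6%, and 1 of them had under 5%. The 65 called below had a median male share of 4.84%, and those not called 20.8%. The X-linked members under 5% in males summed to 28.7% alternative reads in female fat body, and to 43.5% and 43.1% in replicates 1 and 2 without GD16135. The part of such background in the ratios of autosomal members was not tested. It was also not tested for the X-linked genes sta, Zw, Pgd, Sxl and Mct1 named above, whose male shares are not given.

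Conflicting reads moved with the ratio as well. On the autosomes the 325 members with at most 2% conflicting reads had a median log2 ratio of 0.227 ± 0.020 (SD, n = 2). Members with 2 to 5% had 0.396 ± 0.011, those with 5 to 10% had 0.673 ± 0.011, those with 10 to 20% had 0.729 ± 0.049, and the 223 over 20% had 0.811 ± 0.076. Among the 642 members with at most 5% in both libraries the median was 0.186 and 0.193, against 0.664 and 0.688 in the other 2048. When only the 642 were tested, 170 were called against equal reads, 122 to the alternative allele and 48 to the reference. That is 71.8% to the alternative allele, where all members had 91.0%. The lean to the alternative allele was smaller where conflicting reads were few, and it was still present there on the autosomes. On the X the 99 members with at most 2% conflicting reads had median log2 ratios of 0 and -0.062 in replicates 1 and 2. Of these, 12 were called to the alternative allele and 8 to the reference against equal reads. The 80 X-linked members with 2 to 5% had 0.405 and 0.231.

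**Figure D4:**
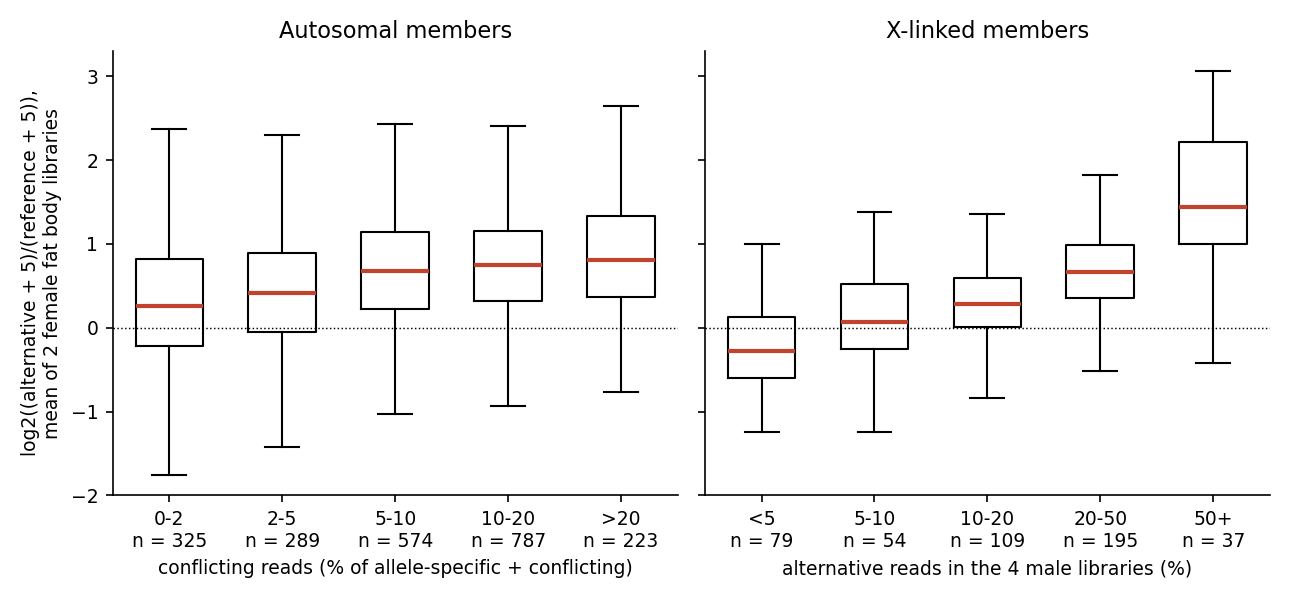
The log2 ratio of each gene (mean of the 2 female fat body libraries) by its share of conflicting reads for autosomal members (left) and by its alternative reads in the 4 male libraries for X-linked members (right); boxes span the middle 50% with the median in red, and whiskers reach 1.5 times that span. The medians increase across the classes from 0.26 to 0.81 on the left and from -0.27 to 1.44 on the right.

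Whether a gene's allelic ratio differed between tissues was tested as the difference itself. Of 2234 members also measured in female oenocytes, the test called 4 (0.179%), 1 higher in fat body (0.0448%) and 3 lower (0.134%), and 121 had an unadjusted p under 0.05. GD20336 (3R) had 81.2% of 80 and 82.5% of 97 reads from the alternative allele in female fat body against 28.9% of 97 and 29.8% of 57 in female oenocytes. The tissues did not overlap and lay on opposite sides of equal reads, a log2 difference of 3.44 ± 0.490 (SE; edgeR adjusted p 0.00639). Males had the same order, with 71.0% and 74.3% in fat body and 21.0% and 31.7% in oenocytes. GD16764 (X) had 48.1% of 181 and 52.0% of 273 in fat body against 83.8% of 303 and 92.1% of 619 in oenocytes (-2.96 ± 0.412, SE; edgeR adjusted p 0.00639). Its male share, called background above, was 24.0%.

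The other 2 genes were lower in fat body, where each gave more D. simulans than D. sechellia reads. GD20655 (3R) had 23.0% of 392 and 28.1% of 912 in fat body against 51.2% of 3992 and 54.0% of 6800 in oenocytes (-1.69 ± 0.256, SE; edgeR adjusted p 0.0084). GD11378 (2R) had 8.97% of 78 and 6.09% of 115 against 36.3% of 204 and 33.0% of 103 (-2.73 ± 0.474, SE; edgeR adjusted p 0.0259). The call of GD20655 was lost without female fat body replicate 1 (edgeR adjusted p 0.157). That of GD11378 was lost without female fat body replicate 1 (0.0973), female fat body replicate 2 (0.366) and female oenocyte replicate 1 (0.0804).

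The tissues shared most calls. Among the 2234 members measured in both, 503 were called against the median in female fat body and 589 in female oenocytes, and 369 were called in both (73.4% and 62.6% of each), 367 of them in the same direction.

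Between the sexes the test was confined to the 2005 autosomal members also measured in male fat body, because males carry a single X. It called 2 (0.0998%), both lower in females, and 50 had an unadjusted p under 0.05. Obp99a (3R), an odorant-binding protein, had 40.3% of 1304 reads and 46.6% of 1900 in female fat body. Male fat body had 100% of 45 and 92.9% of 113. The sexes did not overlap, and the log2 difference was -4.65 ± 0.540 (SE; edgeR adjusted p 0.00108). Without male replicate 2 the fitted difference was -9.46, because the remaining male library had 0 reference reads, and the call held. Female oenocytes had 46.6% of 341 and 47.6% of 225, near the female fat body. Obp99a was also called below the median in female fat body, a call lost without replicate 1 (-0.87, edgeR adjusted p 0.233) and without replicate 2 (-1.23, edgeR adjusted p 0.0838). It was also lost when centred within classes of conflicting reads (-0.55, edgeR adjusted p 0.146) and among genes with at most 5% of them (-0.59, edgeR adjusted p 0.0952).

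GD13841 (3L) had 39.6% of 187 and 38.5% of 275 in female fat body against 96.9% of 32 and 94.3% of 35 in male fat body (-4.96 ± 0.823, SE; edgeR adjusted p 0.0295). Its call was lost without female fat body replicate 2 (edgeR adjusted p 0.0682), male fat body replicate 1 (0.45) and male fat body replicate 2 (0.498). Of the 2005 autosomal members, 808 were called against equal reads in females and 935 in males, and 664 were called in both (82.2% and 71.0% of each), all 664 in the same direction. Of all 2690 members, 36.2% were called against equal reads in females. Calls of the sexes also came from 1 fit with a shared estimate of spread per gene, so they are not independent. Most calls of this test leaned to the alternative allele (886 of 974 over all members in females), so a shared direction was likely beforehand. The overlap of calls against the median was not counted between the sexes.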

How the data were processed

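RNA of 8 libraries was sequenced. Per the submitters' processing notes STAR 2.5.1b and kallisto 0.44.0 were used; the genome build, the variant filter and the treatment of strand are not given in the sources used here. The deposited allele tables hold whole-read counts per gene for the reference allele, the alternative allele, no allele and conflicting alleles. The authors' log2 value in them equals log2((alternative + 5)/(reference + 5)) for genes with 20 or more allele-specific reads. The deposited kallisto tables hold estimated counts per species copy of each transcript, used rounded and only as an alternative, and TPM, used only for levels.

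The members were tested with edgeR 4.0.16 (R 4.3.3) on the deposited counts, with an alternative and a reference column per library, 1 term per library, 1 allele term per group, and glmQLFit and glmQLFTest. Both columns of a library had the same offset (equal reads), or the alternative column was offset by the library's median ratio over the members (pseudocount 0.5). Differences between groups were tested as differences of allele terms. A gene was called when its p, Benjamini-Hochberg adjusted over all members tested, was under 0.05. Each SE was derived from edgeR's F statistic (log2 size divided by root F) and restates the test. The test was checked on simulated counts with the same spread for every gene and equal reads in the other groups. Spread that varies by gene was not simulated.

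Between the 2 male oenocyte libraries the per-gene chi-square of allelic shares had a median of 0.412 (0.455 under sampling noise) and a mean of 2.08. They were summed to 1 sample, leaving 7, as the more cautious choice: their mean exceeded noise, as did their estimated counts at 7.55 chi-square units per degree of freedom (other groups 15.6 to 30.9). Floors and intervals cover counting error only.

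Named genes followed a fixed rule. They are the 2 highest and 2 lowest GD numbers called in both tests with 100 or more reads in each library, the 10 highest and 10 lowest symbols called against the median, members of the gene lists with 100 or more reads in each library, and the genes called between groups. Gel, MtnA, h, Cdc37 and Sxl, and the genes outside these classes, were named after their values were seen. The members and lists were chosen with earlier results of these data known. GD numbers have no names in the files.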

Additional observations from a re-analysis of the deposited data

Results flagged for a closer look

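For 6 genes the allelic ratio differed between groups by the test of the difference itself (edgeR's quasi-likelihood test). The log2 difference of female fat body less female oenocytes was 3.44 for GD20336, -2.96 for GD16764, -1.69 for GD20655 and -2.73 for GD11378. The log2 difference of female less male fat body was -4.65 for Obp99a and -4.96 for GD13841. The calls of GD20336, GD16764 and Obp99a held in all 9 alternatives run for them (DESeq2 and each library left out in turn). The male fat body values rest on 45 and 113 allele-specific reads for Obp99a and on 32 and 35 for GD13841, against 187 to 1900 in female fat body. Groups of 2 libraries were too small for a test of single outlying libraries.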

How the results depend on the processing

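Precision was limited by 2 libraries per group and by a median of 62 and 78 reads per member. Against equal reads 974 members were called, and 467 when only members with 100 or more reads were tested and 170 when only those with at most 5% conflicting reads were (fewer genes tested in both). Leaving out 1 library gave 334 to 1127. Against the library median 579 were called, and 357 and 148 under the same limits, 1007 when only the female fat body libraries were fitted (the cause was not tested), and 164 to 642 when 1 library was left out. The other alternatives gave 792 to 1360 calls against equal reads and 480 to 741 against the median, from unlike numbers of genes tested. With kallisto 792 and 629 of only 941 genes were called against equal reads and against the median. With 1 or more reads per library the counts were 1110 and 628 of 6973 genes. The main fit and DESeq2 tested 2690, and DESeq2 called 849 and 480. Centred on the ratio of summed reads, 324 were above and 243 below, against 293 and 286. Centred within classes of conflicting reads, chosen after seeing the data, 265 were above and 227 below. Deviations of same-numbered libraries correlated weakly between groups (from -0.015 to 0.158), and the main fit did not pair libraries by replicate number. A fit with the replicate number as a block and all 8 libraries apart called 1150 and 741, where all 8 apart without the block called 1104 and 680.

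Between tissues DESeq2 called 8 genes where edgeR called 4, and leaving out 1 library gave 4 to 7. Between sexes leaving out 1 library gave 1 to 4 where all gave 2. The median log2 ratio of 0.572 became 0.38 with 1 or more reads per library, 0.62 with 100 or more, 1.09 with kallisto species copies, 0.19 with at most 5% conflicting reads and 0.67 with a pseudocount of 0.5. With kallisto the autosomal share was 66.5%. The X share of 55.4% became 28.7% for members under 5% in males, and 43.5% and 43.1% in replicates 1 and 2 without GD16135.

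The 46 named genes had 63 called tests, of which 39 kept direction and call under every alternative run and 24 lost the call in 1 or more. A called direction reversed only for Sod, at -0.71 against the median with kallisto. Uncalled values reversed as follows: Obp99a against equal reads, 0.29 with kallisto (edgeR adjusted p 0.0111). Against the median, Obp99c was at 0.29 within classes of conflicting reads and 0.25 with at most 5% conflicting reads, nec at 0.18 and Men at 0.014 under the latter, Zw at -0.085 under the former, and Pgd at 0.11 on chromosome medians and 0.0060 on summed reads. GD16764 against equal reads was at -0.0079 with the replicate block. With 1 female fat body library left out, the ranges that crossed 0 were -0.47 to 0.070 for Obp99c, -0.30 to 0.85 for Tl and -0.24 to 0.11 for Pgd against the median, and -0.16 to 0.19 for Cat and -0.11 to 0.12 for GD16764 against equal reads.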

Other observations

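The number of allele-specific reads of a member could differ between the 2 female fat body libraries while its abundance did not. At 408 of 2690 members (15.2%) the allele-specific reads differed by more than 2-fold between the libraries, relative to the median ratio over the members. The same comparison of TPM, with 1 added to each value, found 4 members. Tl, the Toll receptor, had 190 and 959 allele-specific reads at 47.0 and 40.2 TPM, CoVIIc had 32 and 307 at 338 and 334 TPM, and Trx-2 had 57 and 214 at 79.2 and 69.4 TPM. Of these 408 members 43 (10.5%) differed in allelic share between the libraries by Fisher's exact test, against 19 of the other 2282 (0.833%). The cause was not tested.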
